A study of Mus musculus with 8 samples.

Results

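The collagen genes of mouse CJ7 cells, a line of embryonic stem (ES) cells, were followed across 8 microarrays. Members were the genes with a probe set whose only gene symbol in the platform annotation has the form of a collagen chain name, Col followed by a number, the letter a and a number. The platform held 42 such genes, read by 82 probe sets. For 32 of them at least 1 probe set was called present on 2 or more of the 8 arrays, and these are the collagens tested here, out of 14027 genes tested in all. The other 10 are listed as undetected at the end.

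The 8 arrays form 4 groups of 2. Sall4a-only cells carried a lentiviral short hairpin RNA (shRNA) against both isoforms of the zinc-finger transcription factor Sall4, together with a Sall4a cDNA that the hairpin does not recognise. Sall4b-only cells carried the same hairpin with a resistant Sall4b cDNA. Depleted cells carried the hairpin and no added cDNA. Control cells were infected with a lentivirus that lacks a hairpin. All groups were exposed to virus for 24 hours with polybrene at 2.5 mcg/mL, then kept in medium with LIF and puromycin at 2 mcg/mL, and were harvested 48 hours after infection. Because the control virus had no hairpin, lower Sall4 and the presence of a hairpin cannot be told apart in any comparison with control. An added isoform and the presence of an added cDNA cannot be told apart either, as depleted and control cells carried no added cDNA. Within a group the arrays are described as biological replicates, but not as separate cultures. A p-value here therefore measures no more than the spread between these arrays, which may be technical.

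Collagens are extracellular proteins in which chains wind around each other into a helix. The fibrillar collagens are trimmed outside the cell and pack into the cross-linked fibrils of connective tissue, and are a main product of fibroblasts. Type IV collagen forms the mesh of basement membranes, the sheets under epithelia that early embryonic epithelia and parietal endoderm also make. Other collagens sit on fibrils, form beaded filaments or short-chain networks, or anchor cells as membrane proteins.

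Values are the deposited intensities, each gene read by its brightest detected probe set, on the log2 scale, where 1 unit is a 2-fold change. Array medians ran from 140.67 to 149.78 intensity units and 62.1% to 66.5% of probe sets were called present. Sall4 itself had a log2 intensity of 13.16 and 13.14 on the Sall4a-only arrays and 13.22 and 13.28 on the Sall4b-only arrays. It had 13.36 and 13.33 on the depleted arrays, against 13.88 and 13.75 on the control arrays, and the depleted minus control difference of -0.47 (SE 0.11) did not pass (limma, adjusted p = 0.416). Whether this probe set reads the added cDNAs was not tested. The 10 ES cell markers had a median log2 intensity of 12.76 to 13.33 on the 8 arrays. The Sall4a-only arrays stood apart from each other: 8.27% of all genes differed by over 1 log2 unit between them, against 0.948% in Sall4b-only, 0.713% in depleted and 2.99% in control cells. The main Sall4a-only differences are therefore also given for each of its arrays alone. Precision is limited by the small number of arrays: exact permutation between groups of 2 reaches a two-sided p of 0.333 at best.

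No collagen passed limma's test (adjusted p under 0.05 over all genes) in any of the 8 comparisons below, so each difference is given as a value. Over all genes, 1 was called lower in Sall4a-only than in control cells and 1 in Sall4b-only than in control cells, or 0.00713% each. Against depleted cells alone, 2 genes were called lower in the add-back groups together (0.0143%), and none was called in the comparisons of depleted with control, of each add-back group with depleted or of the add-back groups with each other. The fibrillar chains Col3a1 and Col5a2 differed furthest between groups. Both were lower on each of the 4 arrays with an added isoform than on each of the 4 arrays without. In depleted cells, 24 of the 32 collagens had a higher mean than in control cells, or 75%, where 50.8% of all genes did, and 8 had a lower one, or 25% against 49.2%. Among the 24 is Col24a1, which was called present on the depleted arrays alone and lends no support to that count. Sall4a-only replicate 1 had far less RNA of the main fibrillar collagens than its partner array, so the mean of that group hides unlike arrays. Fewer cells that make a collagen and less RNA per cell cannot be told apart in these bulk samples.

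**Figure D1:**
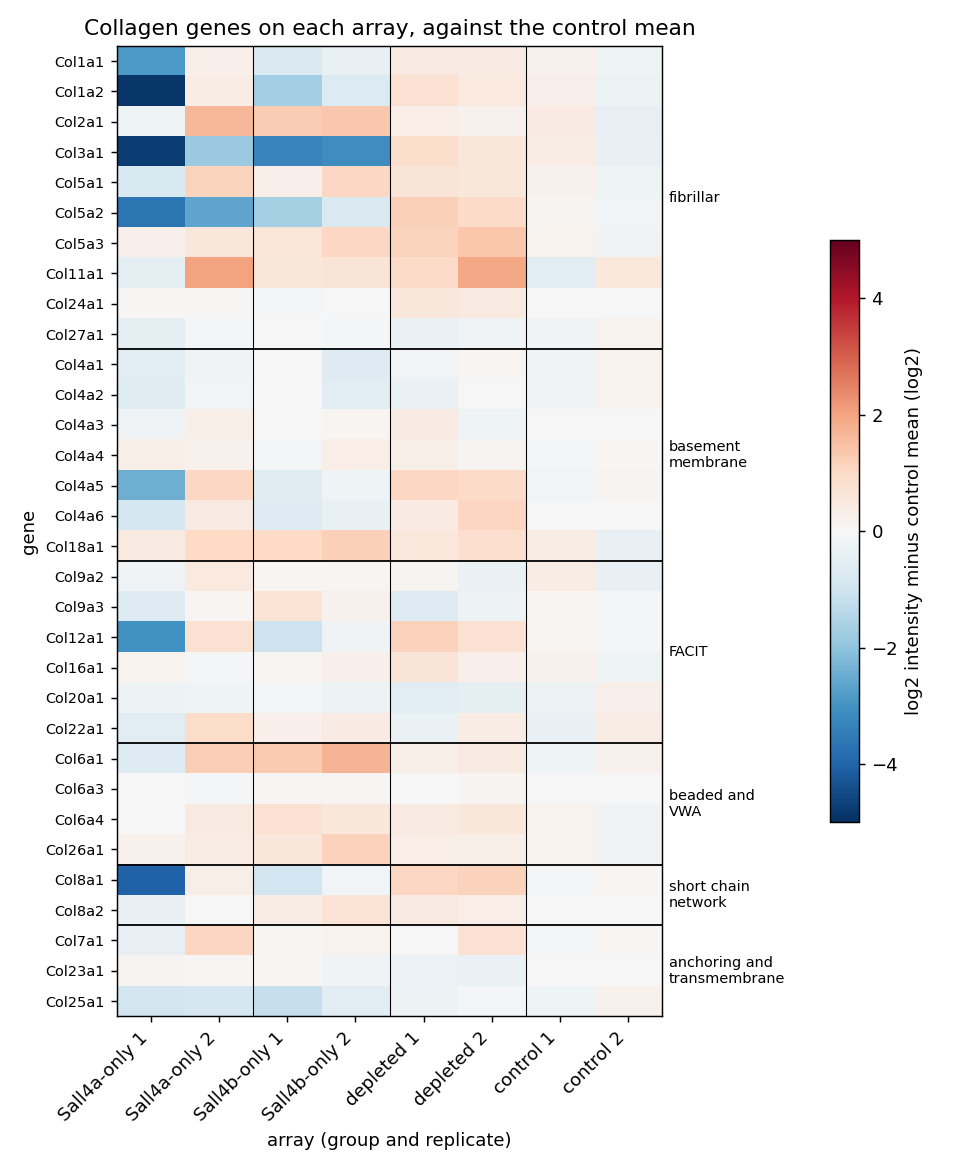
Each of the 32 tested collagen genes (rows, by class) on each of the 8 arrays (columns), coloured by its log2 intensity minus the control mean. Blue marks of -2.86 to -4.86 stand on Sall4a-only replicate 1 for Col1a1, Col1a2, Col3a1, Col5a2, Col8a1 and Col12a1, and Col3a1 is blue on all 4 add-back arrays.

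Col1a1 and Col1a2 encode the chains of type I collagen, the most common collagen of bone, skin and tendon. Col1a1 had a log2 intensity of 10.06 and 13.16 on the Sall4a-only arrays, 12.17 and 12.53 on the Sall4b-only arrays, 13.38 and 13.33 on the depleted arrays and 13.13 and 12.70 on the control arrays. Col1a2 had 7.02 and 12.27 in Sall4a-only, 10.19 and 11.20 in Sall4b-only, 12.64 and 12.37 in depleted and 12.14 and 11.62 in control cells. For both chains Sall4a-only replicate 1 was the lowest array, replicate 2 lay within the range of the arrays without an added isoform, and both Sall4b-only arrays lay below both control arrays. The gap between the Sall4a-only arrays was 3.11 log2 units for Col1a1 and 5.25 for Col1a2.

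Col3a1 encodes type III collagen, which forms thin fibrils in vessels, skin and soft organs, often beside type I. It had a log2 intensity of 5.64 and 8.55 on the Sall4a-only arrays, 7.10 and 7.30 on the Sall4b-only arrays, 11.27 and 10.94 on the depleted arrays and 10.78 and 10.01 on the control arrays. The add-back arrays and the other arrays did not overlap. Unlike type I, Col3a1 stayed low on Sall4a-only replicate 2 and was nearly level on both Sall4b-only arrays.

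Col5a1, Col5a2 and Col5a3 encode chains of type V collagen, which starts fibrils and limits their width. Col5a2 had a log2 intensity of 7.16 and 8.17 in Sall4a-only, 9.14 and 10.08 in Sall4b-only, 11.97 and 11.74 in depleted and 10.94 and 10.65 in control cells. No groups overlapped, and from low to high they ran Sall4a-only, Sall4b-only, control and depleted. Its partner chain Col5a1 had 9.15 and 11.03 in Sall4a-only, 10.18 and 10.94 in Sall4b-only, 10.56 and 10.49 in depleted and 10.12 and 9.71 in control cells. Col5a1 did not share the pattern of Col5a2: both Sall4b-only arrays lay above both control arrays. Col5a3 had 5.89 and 6.21 in Sall4a-only, 6.27 and 6.67 in Sall4b-only, 6.76 and 7.02 in depleted and 5.80 and 5.48 in control cells, and was lower on the control arrays than on the other 6.

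**Figure D2:**
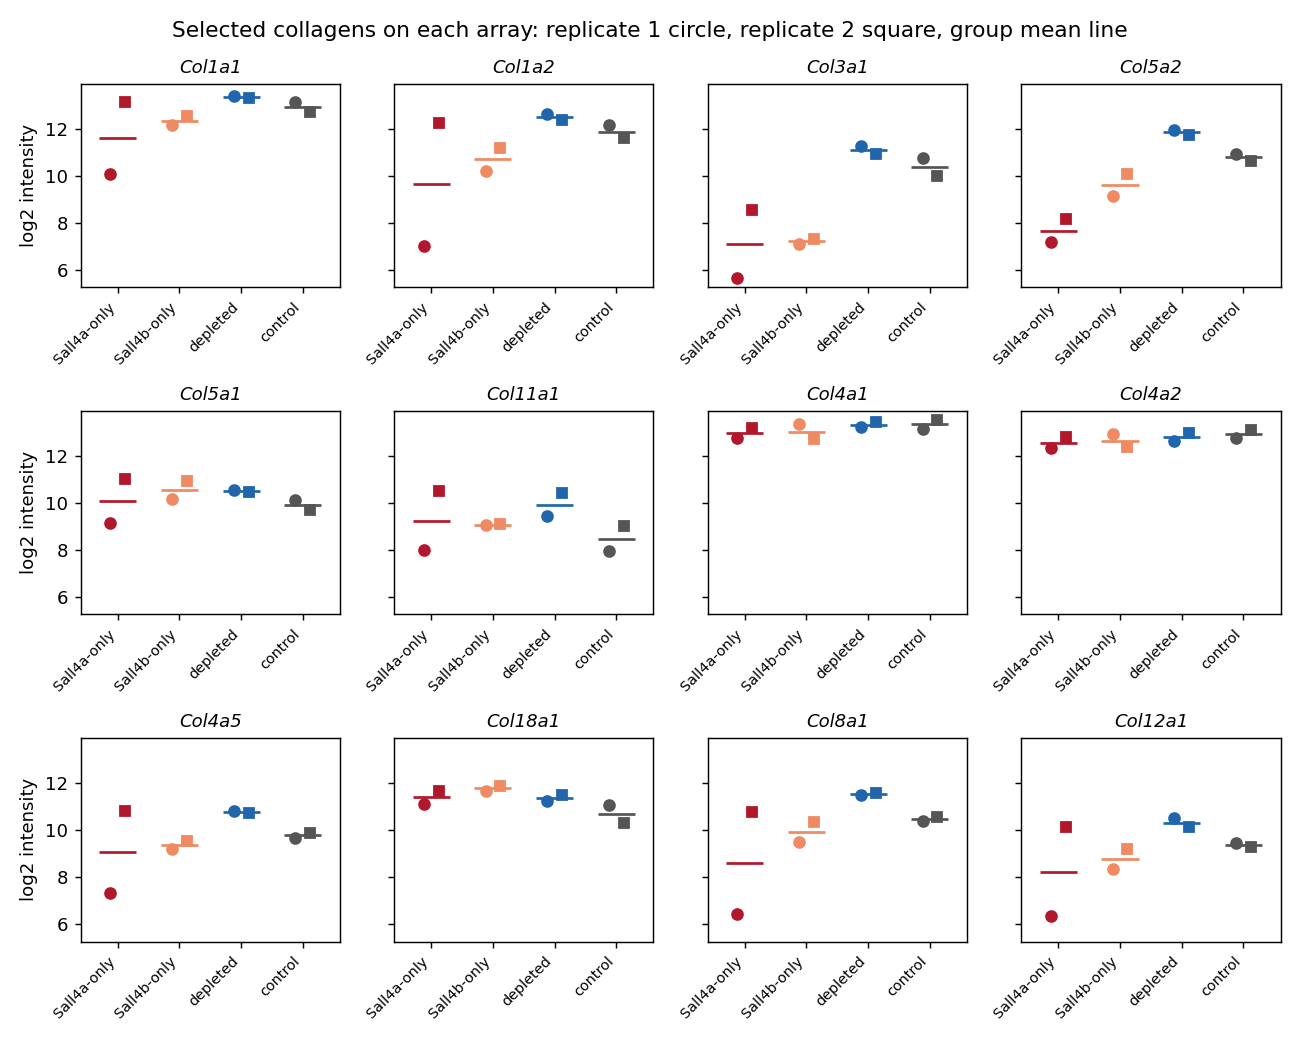
Log2 intensity of 12 collagens by group, with Sall4a-only at the left and control at the right, a circle for replicate 1, a square for replicate 2 and a line at the group mean. Col3a1 and Col5a2 are low on all 4 add-back arrays, whereas for Col1a1, Col1a2, Col4a5, Col8a1 and Col12a1 the Sall4a-only circle lies 3.11 to 5.25 log2 units below its square.

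The cartilage fibril chains differed in another way. Col2a1, the chain of type II collagen, had a log2 intensity of 6.63 and 8.49 in Sall4a-only, 8.12 and 8.20 in Sall4b-only, 7.19 and 7.06 in depleted and 7.23 and 6.45 in control cells. It was higher on both Sall4b-only arrays than on any depleted or control array. Col11a1, which starts type II fibrils, had 8.0 and 10.49 in Sall4a-only, 9.05 and 9.11 in Sall4b-only, 9.44 and 10.41 in depleted and 7.95 and 9.0 in control cells. Its control arrays differed from each other by 1.05 log2 units, the widest gap of any collagen between control arrays.

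Col24a1 and Col27a1 are fibrillar chains found in developing bone and cartilage. Col24a1 had a log2 intensity of 4.41 and 4.42 in Sall4a-only, 4.29 and 4.40 in Sall4b-only, 4.94 and 4.83 in depleted and 4.37 and 4.36 in control cells. It was higher on both depleted arrays than on the other 6, and was called present on the depleted arrays alone. Col27a1 had 6.98 and 7.36 in Sall4a-only, 7.47 and 7.41 in Sall4b-only, 7.10 and 7.27 in depleted and 7.26 and 7.63 in control cells, with Sall4a-only, depleted and control arrays overlapping.

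Type IV collagen is built mainly from Col4a1 and Col4a2, whose genes lie head to head. Col4a1 had a log2 intensity of 12.77 and 13.18 in Sall4a-only, 13.35 and 12.71 in Sall4b-only, 13.22 and 13.46 in depleted and 13.17 and 13.53 in control cells. Col4a2 had 12.34 and 12.81 in Sall4a-only, 12.92 and 12.37 in Sall4b-only, 12.63 and 12.98 in depleted and 12.79 and 13.11 in control cells. Both chains stayed high on all 8 arrays, and their group means spanned 0.38 log2 units each. On Sall4a-only replicate 1, where type I collagen was far lower, Col4a1 stood at -0.58 from the control mean.

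Col4a5 and Col4a6 are the chains of a second type IV mesh and also lie head to head. Col4a5 had a log2 intensity of 7.33 and 10.81 in Sall4a-only, 9.18 and 9.55 in Sall4b-only, 10.81 and 10.72 in depleted and 9.65 and 9.89 in control cells. Col4a6 had 5.80 and 7.13 in Sall4a-only, 6.01 and 6.30 in Sall4b-only, 7.08 and 7.74 in depleted and 6.64 and 6.71 in control cells. Both were higher on both depleted arrays and lower on both Sall4b-only arrays than on either control array, and both differed by over 1 log2 unit between the Sall4a-only arrays. Col4a5 and Col4a6 went low on Sall4a-only replicate 1 with the fibrillar chains, at -2.45 and -0.88 from the control mean.

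Col4a3 and Col4a4, the chains of the kidney filter, were dim. Col4a3 had a log2 intensity of 5.08 and 5.55 in Sall4a-only, 5.26 and 5.34 in Sall4b-only, 5.65 and 5.01 in depleted and 5.28 and 5.21 in control cells. Col4a4 had 5.68 and 5.62 in Sall4a-only, 5.28 and 5.74 in Sall4b-only, 5.70 and 5.52 in depleted and 5.30 and 5.49 in control cells. Col4a3 was called present on 4 of the 8 arrays and Col4a4 on 5, and their group means spanned 0.089 and 0.25. Col18a1, a basement membrane collagen whose end is released as endostatin, had 11.13 and 11.69 in Sall4a-only, 11.68 and 11.88 in Sall4b-only, 11.22 and 11.50 in depleted and 11.05 and 10.31 in control cells. Col18a1 was above both control arrays on all 6 arrays with the hairpin.

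Among the other 15 tested collagens, Col8a1 and Col12a1 had the widest spread of group means. Col8a1, a short-chain network collagen of vessel walls and the cornea, had a log2 intensity of 6.42 and 10.76 in Sall4a-only, 9.49 and 10.34 in Sall4b-only, 11.49 and 11.60 in depleted and 10.37 and 10.55 in control cells. Col12a1, which binds the surface of type I fibrils, had 6.33 and 10.13 in Sall4a-only, 8.33 and 9.17 in Sall4b-only, 10.51 and 10.12 in depleted and 9.46 and 9.28 in control cells. Like the type I chains, both were lowest on Sall4a-only replicate 1 and lower on both Sall4b-only arrays than on either control array. Col8a2, the partner of Col8a1, had 6.80 and 7.14 in Sall4a-only, 7.55 and 7.85 in Sall4b-only, 7.60 and 7.51 in depleted and 7.18 and 7.15 in control cells.

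Col6a1 encodes a chain of the beaded filaments of type VI collagen. It had a log2 intensity of 5.61 and 7.46 in Sall4a-only, 7.53 and 7.92 in Sall4b-only, 6.55 and 6.68 in depleted and 6.02 and 6.45 in control cells. Both Sall4b-only arrays were above every depleted and control array. Col6a4, another type VI chain, had 5.67 and 6.09 in Sall4a-only, 6.41 and 6.19 in Sall4b-only, 6.07 and 6.21 in depleted and 5.81 and 5.46 in control cells. Col26a1 had 5.76 and 5.92 in Sall4a-only, 6.12 and 6.70 in Sall4b-only, 5.89 and 5.84 in depleted and 5.73 and 5.35 in control cells, again highest on the Sall4b-only arrays.

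Col25a1, a transmembrane collagen, had a log2 intensity of 6.51 and 6.61 in Sall4a-only, 6.29 and 6.91 in Sall4b-only, 7.20 and 7.33 in depleted and 7.21 and 7.66 in control cells. With Col3a1 and Col5a2 it was the third collagen whose 4 add-back arrays all lay below the other 4, at a smaller distance. Col9a3, a chain of type IX collagen on cartilage fibrils, had 5.26 and 6.02 in Sall4a-only, 6.59 and 6.13 in Sall4b-only, 5.25 and 5.66 in depleted and 6.0 and 5.82 in control cells, and was higher on the Sall4b-only arrays than on the other 6. The remaining Col6a3, Col7a1, Col9a2, Col16a1, Col20a1, Col22a1 and Col23a1 had group means that spanned 0.14 to 0.50 log2 units.

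Depleted cells were compared with control cells to ask what changes when both Sall4 isoforms are reduced. Collagens mostly had higher means in depleted cells. Of 10 fibrillar chains 9 had a higher mean, and the class averaged 0.67 log2 units above control. These counts and means include Col24a1, which was tested only because it was called present on the depleted arrays. The 7 basement membrane chains averaged 0.37 and the other 15 averaged 0.20. Among those 15, the 2 short-chain collagens averaged 0.74 and the 4 of the class that joins type VI chains with Col26a1 averaged 0.32. The 6 that sit on fibrils averaged 0.057, and the 3 anchoring or transmembrane collagens averaged -0.033. Differences between classes were not tested. Over all 32 the median difference was 0.39, against 0.0038 over all genes tested. For 19 collagens both depleted arrays lay above both control arrays, or 59.4%, where 21.5% of all genes did, and for 3 (Col9a3, Col20a1 and Col23a1) both lay below, or 9.38% against 19.6% of all genes.

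The largest differences of depleted minus control were those of Col11a1, Col5a3, Col8a1 and Col5a2. These 4 exceeded 1 log2 unit without overlap, or 12.5% of the collagens against 1.24% of all genes, and 0 were lower by as much, where 0.478% of all genes were. Col5a3 was 2.37-fold higher, at 6.89 ± 0.19 log2 in depleted and 5.64 ± 0.22 in control cells (SD, n = 2 each), a difference of 1.25 (SE 0.21, limma adjusted p = 0.324). Col5a2 was 2.08-fold higher, at 11.85 ± 0.16 in depleted and 10.79 ± 0.21 in control cells, a difference of 1.06 (SE 0.42, limma adjusted p = 0.613). Col24a1 was 1.43-fold higher, but it was called present on the depleted arrays alone, so it was tested only because of the group where it is high. It stays in the counts that compare depleted cells with other groups, to which it lends no support. At an unadjusted p under 0.05 there were 4 higher and 2 lower collagens, 12.5% and 6.25%, where 4.11% and 3.81% of all genes were, and no gene of any kind passed after adjustment. Markers of fibroblasts averaged 0.29 and 0.32 above the control mean on the depleted arrays. Of the 15 tested, 11 had a higher mean and 4 a lower one, where 50.8% and 49.2% of all genes did. Their median log2 intensity was 9.33 and 8.92 on the depleted arrays, against 9.27 and 9.14 on the control arrays. Their part in the collagen differences was not tested.

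**Figure D3:**
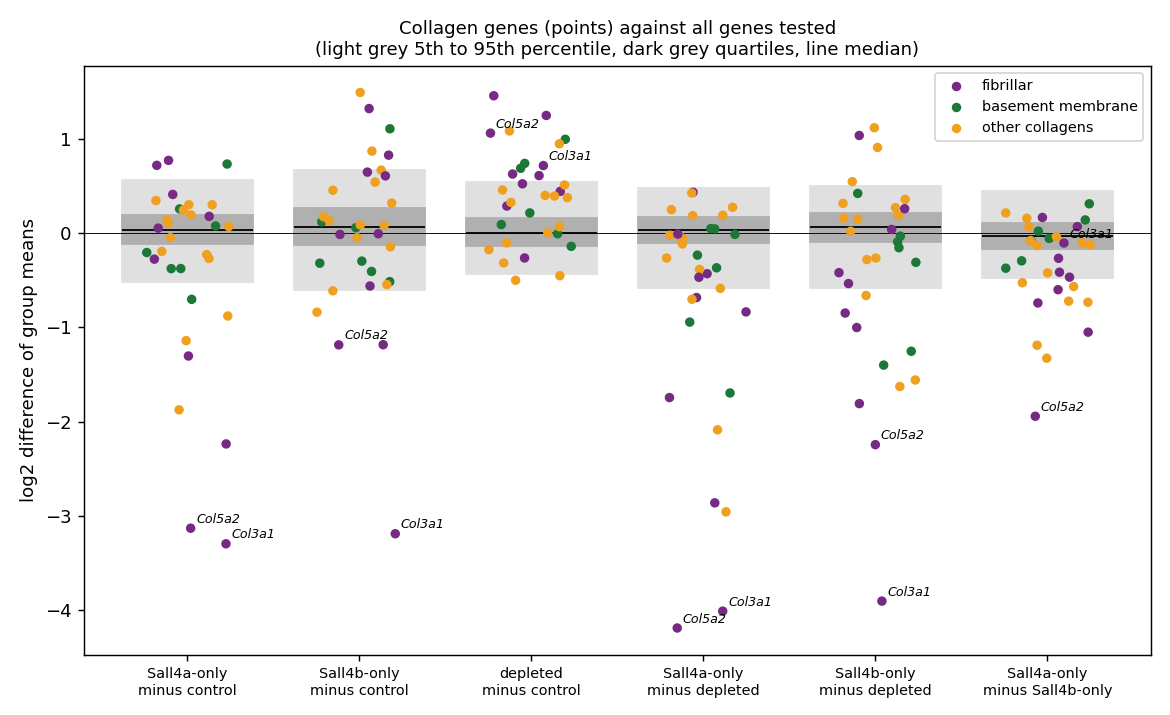
Log2 differences of group means for the 32 collagens (points, by class) in 6 comparisons, over the spread of all 14027 genes (light band from the 5th to the 95th percentile, dark band the quartiles, line the median). Col3a1 and Col5a2 reach -3.30 and -3.13 in Sall4a-only minus control cells and -4.01 and -4.19 in Sall4a-only minus depleted cells, far below the light bands.

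Each isoform alone was compared with control. In Sall4a-only cells Col3a1 was 9.82-fold lower and Col5a2 was 8.75-fold lower than in control cells. Col3a1 was at 7.10 ± 2.06 log2 in Sall4a-only and 10.39 ± 0.55 in control cells (SD, n = 2 each), a difference of -3.30 (SE 0.87, limma adjusted p = 0.404). Col5a2 was at 7.66 ± 0.72 in Sall4a-only and 10.79 ± 0.21 in control cells, a difference of -3.13 (SE 0.42, limma adjusted p = 0.206). They were the only tested collagens below control by over 1 log2 unit without overlap, 6.25% against 1.18% of all genes, and no collagen was above by as much, where 0.72% of all genes were. For Col3a1 the difference was -4.75 on replicate 1 alone and -1.84 on replicate 2 alone, and for Col5a2 it was -3.64 on replicate 1 and -2.62 on replicate 2. Of the 32 collagens 16 had a higher and 16 a lower mean, where 56.6% and 43.4% of all genes did, with a median difference of 0.0004 against 0.035 over all genes. At an unadjusted p under 0.05, Col18a1 was higher (5.47% of all genes) and Col25a1, Col3a1 and Col5a2 were lower (3.37% of all genes).

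The rest of the Sall4a-only result turned on which array was used. On replicate 1, 7 collagens (Col1a1, Col1a2, Col3a1, Col4a5, Col5a2, Col8a1 and Col12a1) lay over 1 log2 unit below the control mean, 21.9% against 3.65% of all genes, and none lay above. On replicate 2, Col3a1 and Col5a2 lay below (1.45% of all genes), and 7 others (Col2a1, Col4a5, Col5a1, Col6a1, Col7a1, Col11a1 and Col18a1) lay above, where 3.14% of all genes did. Col4a5 stood on opposite sides on the arrays. The fibrillar class averaged -0.81 against control on both arrays together, -1.77 without replicate 2 and 0.15 without replicate 1. Without replicate 2 the group is 1 array, whose spread is taken from the other groups. There limma called those same 7 collagens lower than control, among 85 lower and 25 higher of all 14027 genes, which restates that they are low on that array. Without replicate 1 it called no gene. Between the replicates 14 of 32 collagens differed by over 1 log2 unit, or 43.8% against 8.27% of all genes. Non-collagen fibroblast markers averaged -1.37 on replicate 1 and 0.37 on replicate 2, and their part in this gap was not tested.

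In Sall4b-only cells Col3a1 was 9.12-fold lower than in control cells, at 7.20 ± 0.14 log2 in Sall4b-only and 10.39 ± 0.55 in control cells (SD, n = 2 each). The difference was -3.19 (SE 0.87, limma adjusted p = 0.210). In a fit without the Sall4a-only arrays it passed, with limma's adjusted p = 0.0267, among 69 genes called lower and 52 called higher. Col5a2 differed by -1.19 (SE 0.42, limma adjusted p = 0.288) and Col1a2 by -1.18 (SE 1.53, limma adjusted p = 0.755). These 3 were over 1 log2 unit lower without overlap, 9.38% against 1.96% of all genes.

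Another 3 collagens were over 1 log2 unit higher in Sall4b-only cells without overlap, 9.38% against 1.57% of all genes. Col6a1 was 2.81-fold higher (difference 1.49, SE 0.56, limma adjusted p = 0.305), Col2a1 was 2.49-fold higher (1.32, SE 0.58, adjusted p = 0.356) and Col18a1 was 2.15-fold higher (1.10, SE 0.30, adjusted p = 0.209). The 4 tested members of the beaded-filament class with related chains (Col6a1, Col6a3, Col6a4 and Col26a1) all had higher means, with a median difference of 0.77. At an unadjusted p under 0.05, 6 collagens were higher and 3 lower, 18.8% and 9.38%, where 9.46% and 5.6% of all genes were. Means were higher for 17 collagens and lower for 15, where 59.2% and 40.8% of all genes were. The 10 fibrillar chains averaged -0.28, the basement membrane chains -0.038 and the others 0.17. On Sall4b-only replicate 1 alone, 5 collagens lay over 1 log2 unit below the control mean, 15.6% against 2.64% of all genes. On replicate 2 alone it was 1, or 3.12% against 1.81%. Above the control mean by as much lay 3 on replicate 1, 9.38% against 2.15%, and 6 on replicate 2, 18.8% against 1.78%.

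The add-back groups were compared with depleted cells, which carried the same hairpin, to describe what differs when a resistant isoform is added. Depleted cells had no added cDNA, so the isoform and the presence of an added cDNA cannot be told apart here. In Sall4a-only cells 24 of 32 collagens had a lower mean than in depleted cells and 8 a higher one, where 57.6% of all genes were higher, with a median of -0.32 against 0.032 over all genes. That count rested on replicate 1: 29 of 32 were below the depleted mean on replicate 1, or 90.6% against 42.5% of all genes, and 15 on replicate 2, or 46.9% against 43.6%. Without replicate 1 the basement membrane and other classes averaged 0.022 and 0.10, against -0.45 and -0.40 with both arrays. Of the 15 fibroblast markers 14 had a lower mean than in depleted cells (median -0.55), with 15 lower on replicate 1 and 9 on replicate 2, and their part was not tested. Col5a2 was 18.2-fold lower, a difference of -4.19 (SE 0.42, limma adjusted p = 0.0921), and with a trended and robust prior it passed (limma adjusted p = 0.0406), among 6 genes called lower and 2 called higher. Against depleted cells Col5a2 differed by -4.70 on replicate 1 alone and by -3.68 on replicate 2 alone. Col3a1 was 16.1-fold lower, a difference of -4.01 (SE 0.87, limma adjusted p = 0.364), with -5.46 on replicate 1 alone and -2.55 on replicate 2 alone. With Col1a1, Col1a2 and Col8a1, 5 collagens were over 1 log2 unit lower without overlap, 15.6% against 1.75% of all genes, and 0 were higher, where 0.827% of all genes were. At an unadjusted p under 0.05, 6 were lower and 1 higher, where 3.38% and 4.43% of all genes were. Without overlap of any size, 12 were lower and 2 higher, where 12.3% and 22.9% of all genes were. How many were over 1 log2 unit lower changed with the Sall4a-only array that was kept, and the share of all genes was not counted there.

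In Sall4b-only cells 18 of 32 collagens had a lower mean than in depleted cells, where 38.2% of all genes did, with a median of -0.13 against 0.065 over all genes. Col3a1 was 15.0-fold lower (difference -3.90, SE 0.87, limma adjusted p = 0.325) and Col5a2 was 4.74-fold lower (difference -2.24, SE 0.42, limma adjusted p = 0.271). Col3a1 passed limma when the fit held the Sall4b-only and depleted arrays alone (limma adjusted p = 0.0169) or left out the Sall4a-only arrays (limma adjusted p = 0.0123). All genes called numbered 52 lower and 9 higher in the first of these fits and 54 lower and 12 higher in the other. Lower by over 1 log2 unit without overlap were 8 collagens, Col1a1, Col1a2, Col3a1, Col4a5, Col4a6, Col5a2, Col8a1 and Col12a1, which is 25% against 1.98% of all genes. Higher by as much were Col2a1 and Col6a1, 6.25% against 0.677% of all genes. At an unadjusted p under 0.05, 5 were lower and 1 higher, where 3.76% and 5.1% of all genes were. Without overlap of any size, 12 were lower and 8 higher, where 18.9% and 37.8% of all genes were. Of the 15 fibroblast markers 13 had a lower mean in Sall4b-only than in depleted cells (median -0.55), 5 of them at an unadjusted p under 0.05, and their part was not tested. The comparisons with control and with depleted share the add-back arrays, so their differences are not independent of each other.

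The isoforms were set against each other directly. In Sall4a-only cells Col5a2 was 3.85-fold lower than in Sall4b-only cells, with group means of 7.66 ± 0.72 for Sall4a-only and 9.61 ± 0.66 for Sall4b-only on the log2 scale (SD, n = 2 each), a difference of -1.94 (SE 0.42, limma adjusted p = 0.561). It was -2.45 on Sall4a-only replicate 1 alone and -1.44 on replicate 2 alone. Col6a1 differed by -1.19 (SE 0.56, limma adjusted p = 0.879), with -2.12 on Sall4a-only replicate 1 alone and -0.27 on replicate 2 alone. These 2 were lower by over 1 log2 unit without overlap, 6.25% against 0.492% of all genes, and 0 were higher, against 0.77% of all genes. How many collagens were lower by as much changed with the Sall4a-only array that was kept, and the share of all genes was not counted there. Col3a1 differed by -0.11 (SE 0.87), an interval too wide to show that the isoforms act alike.

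Both add-back groups together were 9.29-fold lower in Col5a2 than depleted cells (difference -3.22, SE 0.36, limma adjusted p = 0.110) and 15.5-fold lower in Col3a1 (difference -3.96, SE 0.75, adjusted p = 0.277). Lower by over 1 log2 unit without overlap were Col1a1, Col1a2, Col3a1, Col5a2 and Col8a1, 15.6% against 1.38% of all genes, and 0 were higher, against 0.321% of all genes. A comparison of the 4 add-back arrays with the 4 depleted and control arrays was added after the values were seen, and in it 2 genes of all those tested were called higher (0.0143%) and 7 lower (0.0499%). There Col5a2 differed by -2.69 (SE 0.30, limma adjusted p = 0.0633) and Col3a1 by -3.60 (SE 0.61, limma adjusted p = 0.165). With Col25a1 (-0.77, SE 0.17, limma adjusted p = 0.190), 3 collagens did not overlap, 9.38% against 2.46% of all genes, which describes the pattern the comparison was chosen for. Without Sall4a-only replicate 1 both Col3a1 and Col5a2 passed limma in both of these comparisons, among 27 lower and 14 higher genes against depleted and 41 lower and 54 higher against the other 4 arrays. Without replicate 2, 7 collagens passed in each, among 237 lower and 34 higher genes against depleted and 255 lower and 80 higher against the other 4 arrays.

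**Figure D4:**
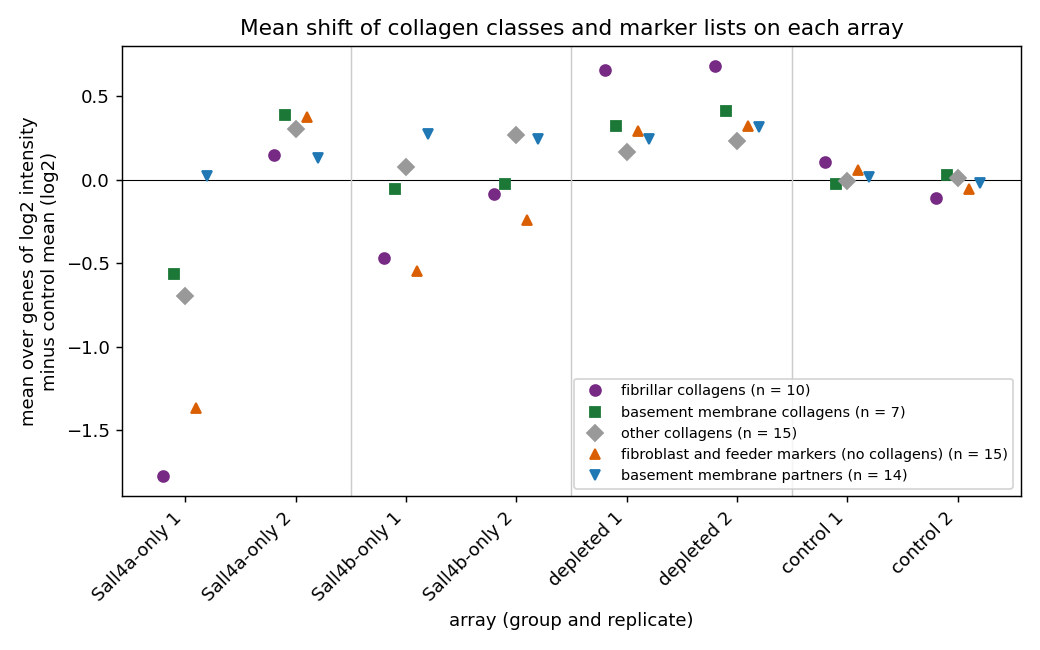
Mean shift from the control mean on each array (log2 units) for fibrillar, basement membrane and other collagens, for fibroblast and feeder markers that are not collagens, and for basement membrane partner genes. Fibrillar collagens run from -1.77 on Sall4a-only replicate 1 to 0.68 on depleted replicate 2, fibroblast markers from -1.37 to 0.37, and basement membrane partners from -0.02 on a control array to 0.32.

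Genes that serve collagens were read from lists by role. None of their members passed limma after adjustment in any of the 8 comparisons. Of the 17 tested genes that fold and modify the chains, 14 had a lower mean in Sall4a-only than in control cells, where 43.4% of all genes did, and 13 in Sall4b-only cells, where 40.8% did. Taken alone, Sall4a-only replicate 1 had 16 of the 17 below the control mean and replicate 2 had 8. Serpinh1, the collagen chaperone Hsp47, had a log2 intensity of 11.72 and 12.98 in Sall4a-only, 12.45 and 12.37 in Sall4b-only, 12.79 and 12.69 in depleted and 12.77 and 12.71 in control cells. It was low on Sall4a-only replicate 1 and highest on replicate 2. P3h2, a prolyl 3-hydroxylase, differed from control by -1.14 (SE 0.21, limma adjusted p = 0.281) in Sall4a-only and by -0.80 (SE 0.21, adjusted p = 0.208) in Sall4b-only cells.

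Of 14 tested cross-linking enzymes and fibril partners, 8 had a lower and 6 a higher mean in Sall4a-only than in control cells. In Sall4b-only cells it was 10 and 4. Lower in these 2 comparisons were 43.4% and 40.8% of all genes. The list averaged -1.33 and 0.15 from the control mean on the Sall4a-only arrays and -0.64 and -0.23 on the Sall4b-only arrays. At an unadjusted limma p under 0.05, 3 were lower and 1 higher in Sall4a-only, where 3.37% and 5.47% of all genes were. Lox is the lysyl oxidase that cross-links collagen chains. Lox had a log2 intensity of 6.95 and 10.62 in Sall4a-only, 8.27 and 8.35 in Sall4b-only, 12.09 and 11.30 in depleted and 11.66 and 11.23 in control cells. All 4 add-back arrays lay below the other 4. Tgfbi, a secreted protein that binds collagens, had 9.13 and 9.59 in Sall4a-only, 9.46 and 10.16 in Sall4b-only, 11.18 and 11.47 in depleted and 11.69 and 11.13 in control cells. It too was lower on all 4 add-back arrays, by -1.78 (SE 0.22, limma adjusted p = 0.0953) against the other 4. Tnc, the matrix protein tenascin-C, differed by -2.35 (SE 0.70, limma adjusted p = 0.260) in the same comparison.

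The 14 tested laminins, nidogens and proteoglycans averaged 0.023 and 0.13 above the control mean on the Sall4a-only arrays, 0.28 and 0.24 on the Sall4b-only arrays and 0.24 and 0.32 on the depleted arrays. Agrn, the proteoglycan agrin, had a log2 intensity of 11.92 and 12.03 in Sall4a-only, 11.84 and 11.94 in Sall4b-only, 11.84 and 11.99 in depleted and 11.54 and 11.27 in control cells, above control on all 6 arrays with the hairpin. Lama5, a laminin chain, differed from control by 0.72 (SE 0.16, limma adjusted p = 0.416) in depleted cells.

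Of 6 tested collagen receptors, Itga1, the alpha chain of a collagen-binding integrin, had a log2 intensity of 6.67 and 7.24 in Sall4a-only, 6.53 and 6.59 in Sall4b-only, 7.64 and 7.14 in depleted and 6.09 and 5.51 in control cells. All 6 arrays with the hairpin lay above both control arrays, and the depleted minus control difference was 1.59 (SE 0.29, limma adjusted p = 0.356). Mrc2, a receptor that takes up collagen, differed from control by 1.36 (SE 0.56, limma adjusted p = 0.331) in Sall4b-only cells. The 11 tested genes of procollagen secretion and trimming had a median difference from control of -0.065 in Sall4a-only, 0.045 in Sall4b-only and 0.012 in depleted cells. Tll1, a protease that trims procollagen, differed by 0.64 (SE 0.15, limma adjusted p = 0.416) in depleted minus control cells.

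The 22 tested regulators of collagen transcription had a median difference from control of -0.043 in Sall4a-only, -0.070 in Sall4b-only and 0.063 in depleted cells. Sox9, the cartilage factor that drives Col2a1, had a log2 intensity of 7.73 and 8.39 in Sall4a-only, 7.55 and 8.53 in Sall4b-only, 8.68 and 8.52 in depleted and 9.86 and 9.59 in control cells. All 6 arrays with the hairpin lay below control, while Col2a1 was higher than control on both Sall4b-only arrays. Tgfb3, a growth factor that raises collagen output in fibroblasts, had 6.03 and 8.64 in Sall4a-only, 7.58 and 8.42 in Sall4b-only, 10.77 and 8.84 in depleted and 9.22 and 8.16 in control cells; its replicates lay far apart in Sall4a-only and depleted cells.

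Markers of other cells that could be in a culture were read beside the collagens. Of 21 fibroblast and feeder markers 15 were tested, while Dcn, Lum, Fbn1, Fap, Tcf21 and Mgp were not called present on 2 arrays. The summed intensity of the 15 was 17823 and 35076 in Sall4a-only, 28082 and 30261 in Sall4b-only, 39305 and 38298 in depleted and 31612 and 29868 in control cells. The summed intensity of the 10 fibrillar collagens was 2518 and 18916 in Sall4a-only, 8733 and 12614 in Sall4b-only, 26146 and 24223 in depleted and 18960 and 14127 in control cells. Both sums were lowest on Sall4a-only replicate 1 and highest on the depleted arrays. Prrx1, a mesenchymal transcription factor, had a log2 intensity of 5.71 and 8.27 in Sall4a-only, 6.11 and 7.28 in Sall4b-only, 8.53 and 8.85 in depleted and 7.94 and 7.62 in control cells. Igfbp7, a secreted fibroblast protein, had 8.52 and 10.07 in Sall4a-only, 9.34 and 9.30 in Sall4b-only, 11.86 and 11.48 in depleted and 10.89 and 10.19 in control cells, lower on all 4 add-back arrays than on the other 4. The list as a whole did not share that pattern. On Sall4a-only replicate 1 all 15 markers lay below the control mean, where 44.8% of all genes did. On replicate 2, 4 lay below, where 45.1% of all genes did, and 11 lay above.

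The 15 tested markers of primitive and parietal endoderm, cells that secrete type IV collagen, averaged -1.27 and -0.65 against the control mean on the Sall4a-only arrays, -0.052 and -0.68 on the Sall4b-only arrays and -0.19 and -0.16 on the depleted arrays. The Sall4a-only minus control differences of Col4a1 and Col4a2 were -0.38 and -0.38. The 8 tested chondrocyte markers averaged -0.060 and -0.037 on the Sall4a-only arrays, 0.13 and 0.33 on the Sall4b-only arrays and 0.070 and -0.037 on the depleted arrays. In Sall4b-only minus control 5 were higher and 3 lower, and their summed intensity was 1412 and 1769 in Sall4b-only, against 2209 and 1840 in control cells. Smooth muscle markers averaged 0.98 and 0.52 above control on the depleted arrays over 6 genes, and endothelial markers 0.16 and 0.15 over 5. Smooth muscle markers averaged -0.38 and 0.66 on the Sall4a-only arrays and 0.083 and 0.49 on the Sall4b-only arrays. For endothelial markers it was -0.0015 and -0.18 on the Sall4a-only arrays and -0.074 and 0.18 on the Sall4b-only arrays. ES cell markers averaged 0.32 and -0.18 on the Sall4a-only arrays, 0.31 and 0.24 on the Sall4b-only arrays and 0.055 and 0.023 on the depleted arrays. The part of any of these cell types in the collagen values was not tested.

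Col3a1 and Col5a2 are neighbours on mouse chromosome 1 in the RefSeq annotation of GRCm38.p6, and form 1 of 4 adjacent collagen pairs with both members tested. The measured genes around them are given because of their position. Gulp1, next to Col3a1, differed from control by -0.084 in Sall4a-only, -0.092 in Sall4b-only and 0.35 in depleted cells. Wdr75, next to Col5a2, differed by -0.11 in Sall4a-only, 0.15 in Sall4b-only and 0.086 in depleted cells. Slc40a1, the iron exporter further along, differed by -0.81 in Sall4a-only, -1.17 in Sall4b-only and -0.46 in depleted cells, and its 4 add-back arrays lay below the other 4. Within the other pairs, Col4a1 and Col4a2 had group means on the same side of control, and Col4a5 and Col4a6 were on the same side of control in each group mean.

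**Figure D5:**
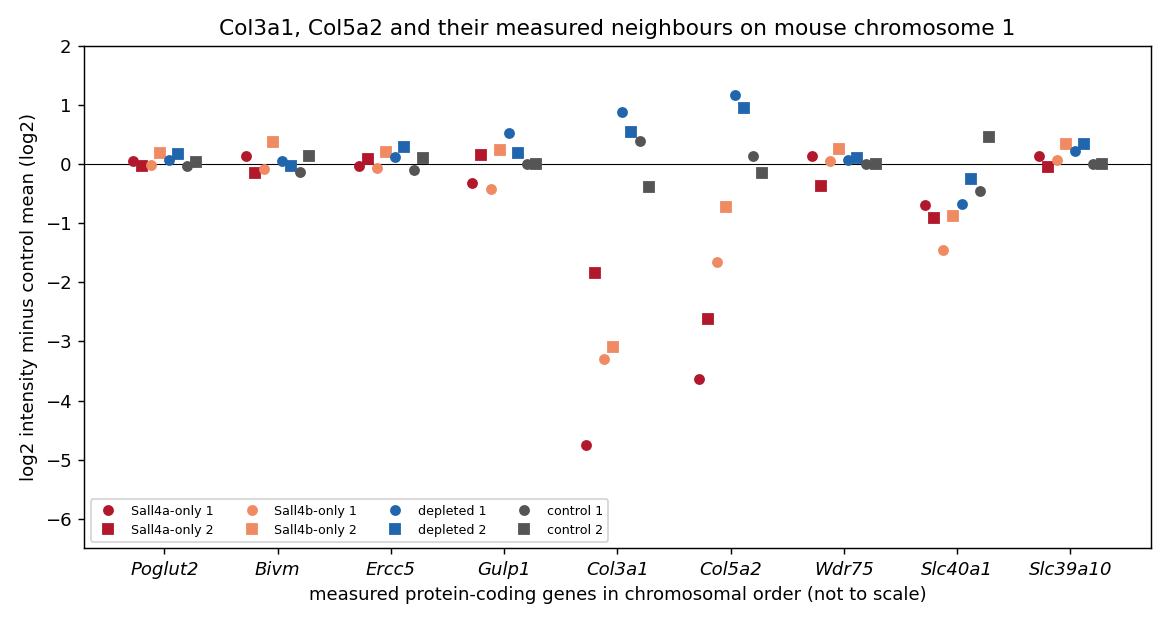
Log2 intensity minus the control mean for Col3a1, Col5a2 and the measured genes around them on mouse chromosome 1, in chromosomal order and not to scale (circle for replicate 1, square for replicate 2). The add-back arrays of Col3a1 lie between -1.84 and -4.75 and those of Col5a2 between -0.72 and -3.64, while the points of Gulp1 and Wdr75 lie close to the control mean.

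Promoter sequences are shown for the collagens whose profiles are set apart above: Col3a1, low on all add-back arrays, and Col1a2 and Col4a5, low on Sall4a-only replicate 1. The promoter table used, from RefSeq (GRCm38.p6), was matched to 24 of the 32 tested collagens; Col1a1 and Col5a2 were not matched. Each sequence is the 250 bases before the annotated start on the + strand, 5′ to 3′, with 3 searched motifs in capitals: the CCAAT box, the TATA box in the form TATAAA, and the GC box in the form GGGCGG. They are Col3a1 at chr1:45311288-45311537, Col1a2 at chr6:4505368-4505617 and Col4a5 at chrX:141475169-141475418. The last is the 22 bases from the start of 1 gene of the Col4a1 and Col4a2 pair to that of the other, at chr8:11312805-11312826. Both start bases are included, and the stretch shows how closely that head-to-head pair lies. Whether these bases lie before the starts or within the transcripts was not examined.
Col3a1: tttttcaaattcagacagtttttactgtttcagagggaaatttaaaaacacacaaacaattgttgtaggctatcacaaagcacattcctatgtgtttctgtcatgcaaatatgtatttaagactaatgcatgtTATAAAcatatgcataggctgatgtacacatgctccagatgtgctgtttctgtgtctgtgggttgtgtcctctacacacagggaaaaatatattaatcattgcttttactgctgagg
Col1a2: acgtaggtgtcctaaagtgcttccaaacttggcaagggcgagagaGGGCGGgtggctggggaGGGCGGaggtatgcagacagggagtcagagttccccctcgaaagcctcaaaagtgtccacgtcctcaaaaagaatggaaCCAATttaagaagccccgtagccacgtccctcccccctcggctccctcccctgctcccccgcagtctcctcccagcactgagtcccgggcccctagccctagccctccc
Col4a5: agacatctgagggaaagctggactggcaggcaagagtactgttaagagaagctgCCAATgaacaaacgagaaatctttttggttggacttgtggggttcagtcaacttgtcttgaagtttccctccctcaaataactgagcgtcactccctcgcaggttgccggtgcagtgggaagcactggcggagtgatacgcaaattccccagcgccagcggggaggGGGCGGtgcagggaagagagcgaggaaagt
Col4a1/Col4a2: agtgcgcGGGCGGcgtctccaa

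Col3a1 holds a TATAAA beginning 117 bases before its start and neither of the other motifs, and its window has 35.2% G and C. Col1a2 holds a CCAAT beginning at 109 and a GGGCGG beginning at 205 and at 188, with 62% G and C. Col4a5 holds a CCAAT at 196 and a GGGCGG at 30, with 54% G and C. Counting both strands, CCAAT stood in 11 of 25 promoter entries of tested collagens, or 44%, against 33.85% of the 32851 promoters in the table. TATAAA stood in 1 of 25, or 4%, against 12.4%, and that 1 was Col3a1. GGGCGG stood in 17 of 25, or 68%, against 32.7%. A match describes letters in this window and not a bound factor.

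The collagens not detected were Col6a2, Col6a5, Col9a1, Col10a1, Col11a2, Col13a1, Col14a1, Col15a1, Col17a1 and Col19a1. Their log2 intensity reached 6.39 at most, in Col13a1. Col9a1 and Col19a1 were called present on 1 array each and the other 8 on none. Of the 32 tested genes, 22 were called present on all 8 arrays. For 17 genes more than 1 probe set was detected, and the direction of the group difference was the same in all of them for 11 to 15 genes, depending on the comparison. The dimmer detected probe set of Col3a1 differed from control by -2.85 with Sall4a alone and by -3.22 with Sall4b alone. That of Col5a2 differed from control by -2.41 with Sall4a alone and by -0.83 with Sall4b alone. For Col1a1 the size depended on the probe set. Its dimmer one differed from control by -2.01 with Sall4a alone and by -1.60 with Sall4b alone, against -1.30 and -0.56 for the one used.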

How the data were processed

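RNA of 8 samples of mouse CJ7 cells was read on 1 type of Affymetrix array. The deposited values are intensities that the authors normalized by RMA (version not stated), per the submitters' processing notes. The tables also hold present, marginal or absent calls, whose method is not named in the labels. Groups follow the labels. From 45101 probe sets, 64 controls were left out; 34945 had 1 gene symbol in the platform annotation. A gene was tested if a probe set was called present on 2 of 8 arrays, and was read by its brightest such probe set, which gave 14027 genes. Intensities were put on the log2 scale with no pseudocount and fitted with limma 3.58.1 (lmFit, contrasts.fit, eBayes; R 4.3.3) over all 8 arrays, with Benjamini-Hochberg adjustment per comparison. The fit was tested on simulated data. Values per array were given for all fibrillar and basement membrane collagens and the 8 other collagens with the widest spread of group means; of each other list, genes were named from the 4 with the smallest p in a comparison, with Sall4 and Serpinh1 always named. The members and lists were chosen with earlier results of these data known. The comparison of both add-back groups with all other arrays was chosen after seeing the data. Same-numbered arrays deviated together in control and depleted cells (correlation 0.57) and little in the other pairs of groups (-0.12 to 0.20). The labels state no pairing, so the main fit has no block. Whether same-numbered control and depleted arrays share a batch was not tested.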

Additional observations from a re-analysis of the deposited data

How the results depend on the processing

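Alternatives were read for collagens already over 1 log2 unit apart without overlap in the main fit, and for Col25a1. Of 674 such values 644 kept their direction and side of the threshold. That choice favours keeping the direction, and as no collagen passed in the main fit, the same side means not passing. With the replicate number as a block, 0 collagens passed in any comparison and the fibrillar mean of depleted minus control stayed at 0.67, as without the block. The spread of the 2 Sall4a-only arrays enters the shared error of every comparison. Depleted minus control called 0 genes both with and without those arrays. Collagens passing limma numbered 1 in Sall4b-only minus control without both Sall4a-only arrays, 1 in Sall4b-only minus depleted without them and 1 with those groups alone (Col3a1 each time), 1 in Sall4a-only minus depleted with a trended and robust prior, 1 in both add-backs minus depleted with that prior, and 1 in both add-backs minus the rest with that prior, with median centring or with the mean of probe sets (Col5a2 each time). Leaving out 1 array in turn gave 0 to 7 passing in Sall4a-only minus control, 0 to 1 in Sall4b-only minus control, 0 to 7 in Sall4a-only minus depleted, 0 to 1 in Sall4b-only minus depleted, 0 to 3 in Sall4a-only minus Sall4b-only, 0 to 7 in both add-backs minus depleted and 0 to 7 in both minus the rest. Collagens over 1 log2 unit apart without overlap then numbered, higher and lower, 0 to 7 and 2 to 7 in Sall4a-only minus control, 2 to 6 and 1 to 5 in Sall4b-only minus control, 0 to 1 and 2 to 11 in Sall4a-only minus depleted, 0 to 5 and 1 to 12 in Sall4a-only minus Sall4b-only, 0 to 1 and 4 to 9 in both minus depleted, and 0 to 2 and 2 to 8 in both minus the rest. Each of these fits leaves 1 array in 1 group, where a gap without overlap is easier to reach for any gene. The share of all genes over 1 log2 unit apart was not counted in them. These ranges therefore show how far the counts move with the array left out, not an excess of collagens over other genes. In Sall4b-only minus depleted 1 to 2 collagens were higher by as much. With genes present on all 8 arrays, 1 was higher in Sall4b-only minus depleted (1 with median centring too) and 1 lower in Sall4a-only minus Sall4b-only; the other collagens averaged 0.15 in depleted minus control, -0.084 in Sall4b-only minus control and -0.24 in Sall4b-only minus depleted. Basement membrane collagens in Sall4b-only minus control averaged 0.019 with that filter, -0.12 with median centring and -0.097 with the mean of probe sets, and -0.46 in Sall4b-only minus depleted with median centring. The cause of these shifts was not tested.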
